A study of Mus musculus with 16 samples.

Results

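The 53 genes described here encode the machinery that builds and sorts the primary cilium: intraflagellar transport, the BBSome, the cilium's motors, the nephrocystins and the transition zone. They were chosen by name as known subunits or partners of these complexes, and each was found by its symbol and Ensembl identifier in the table of 55536 genes. All 53 passed the filter on low counts that left 15316 genes for testing. They fall into 11 genes of intraflagellar transport complex B (IFT-B), 7 of complex A (IFT-A), 7 of the BBSome, 4 of its assembly and recruitment, 2 ARL GTPases, 3 of kinesin-2, 2 of dynein-2, 4 nephrocystins, 11 of the transition zone and 2 others, the doublecortin-domain gene Dcdc2a and the centriole gene Ofd1. Tulp3, an adaptor and not a subunit, is counted with IFT-A.

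The primary cilium is a microtubule-based antenna that most tubule cells of the kidney carry on their apical side. Kinesin-2 moves trains of IFT-B and IFT-A outward along the axoneme and dynein-2 brings them back, while the BBSome links membrane proteins to the trains for removal. The transition zone at the base, with the nephrocystins beside it, is the gate for what enters. Polycystin-2, the channel protein encoded by Pkd2, is itself carried into this cilium, and mutations in many of the 53 genes cause cystic kidney disease in people.

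RNA came from an inner medullary collecting duct cell line, 1 line newly made from a Pkd2 knockout mouse, in which doxycycline (DOX) induces the knockout. Cells of passage 4 or passage 7 were grown on permeable filters for 10 days in medium with serum, with DOX at 2 ug/mL during 6 of these days or without it. Each of the 4 groups has 4 libraries, 16 in all. All titles call the cells Pkd2KO, but the genotype given is wild type in the 8 libraries without DOX and knockout induced by DOX in the other 8. The promoter that drives the knockout was not stated in the labels, and no DOX-treated cells without the inducible knockout are among the samples, so an effect of DOX and an effect of losing Pkd2 cannot be told apart. Whether replicates came from separate cultures is not stated, and p-values therefore cover the spread among these libraries alone.

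Many ciliary genes are known to carry an X-box, the site bound by RFX transcription factors, near their start, and the promoter windows of the members were therefore searched for it. A strict match was GTTNCC followed after 1 to 3 bases by GGNAAC, and a loose match was GTNNCC followed after 1 to 3 bases by GGNNAC. Both patterns read the same on either strand, and each strict match is also a loose one. RefSeq windows of 300 bases on GRCm38.p6, from 250 bases before to 50 after a gene's start, were given for 47 members and not for Ift80, Ift81, Ift122, Dync2li1, Anks6 and Tmem67. A strict match lay in the windows of 5 of 47 members (10.6%), against 244 of 27025 genes (0.903%). A loose match lay in 12 of 47 (25.5%), against 1082 of 27025 (4.004%). By complex, 5 of 10 transition zone genes, 3 of 7 BBSome genes and 2 of 9 IFT-B genes with a window held a loose match, and neither ARL gene nor any of the 3 kinesin-2 genes did. A match is a description of the letters and not a mapped binding site.

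Of the 5 strict matches 4 lie before the RefSeq start of their gene, and the stretches below show those of Bbs7, Mks1 and Tctn3 and, for comparison, loose matches of the transition zone gene Tctn2 and the IFT-A gene Wdr19. Each is given 5′ to 3′ on the gene's strand, with the match in capitals.
Bbs7, chr3:36613473-36613534, minus strand: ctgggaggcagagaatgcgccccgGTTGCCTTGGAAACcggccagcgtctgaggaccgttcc
Mks1, chr11:87853167-87853214, plus strand: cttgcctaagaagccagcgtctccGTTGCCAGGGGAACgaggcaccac
Tctn3, chr19:40612335-40612395, minus strand: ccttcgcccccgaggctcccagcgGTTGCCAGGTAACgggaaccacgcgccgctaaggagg
Tctn2, chr5:124598663-124598724, plus strand: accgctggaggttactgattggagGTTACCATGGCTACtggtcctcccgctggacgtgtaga
Wdr19, chr5:65199638-65199695, plus strand: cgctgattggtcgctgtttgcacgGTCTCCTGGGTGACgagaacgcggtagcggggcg
The other strict matches are given as the match alone. They are GTTGCCTGGTAAC in Ift57 (chr16:49699234-49699246, plus strand), 60 bases before the RefSeq start but inside the gene as GENCODE annotates it, and GTTGCCCGGGCAAC in Tctn1 (chr5:122264411-122264424, minus strand), after the start. Dcdc2a and Ift172, the members with the largest log2 fold changes with DOX averaged over the passages, had no match in their windows.

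Pkd2 RNA was lower in every library with DOX. At passage 4 it stood at 144.9, 142.1, 135.2 and 138.4 CPM (counts scaled to each library's TMM-adjusted total) without DOX and at 52.11, 47.8, 53.55 and 57.43 with it, so that 37.6% was left. At passage 7 it stood at 187.4, 185.2, 184 and 185.3 without DOX and at 47.57, 52.92, 60.34 and 65.9 with it, so that 30.6% was left (exact 2-sided permutation p = 0.0286 at each passage, the smallest that 70 arrangements of 4 against 4 allow). Total counts ranged from 9937504 to 17188295 per library. In all 4 groups, replicates 1 and 2 stood apart from replicates 3 and 4: between the groups, libraries of the same number or pair deviated together from their group means (correlations of 0.222 to 0.5), and libraries of the other pair deviated the opposite way (-0.442 to -0.219). A deposited table of TPM values carries other headings than the counts for 12 of its 16 columns, each fitting a count column of another group. Pkd2 follows the DOX labels of the count headings, but no gene checks their passage labels, so every statement on passage rests on the headings of the counts. Of the collecting duct and distal epithelium markers 10 of 12 were tested, with summed levels of 6090 to 8250 CPM, and Hoxb7, Krt8, Cdh1 and Epcam were among them. Of the 9 principal cell markers 5 were tested, Aqp2 had no count in any library and Aqp3 had at most 6 counts in any 1, so the principal cell's water channels were at or near 0.

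All 53 members were present in every library, at moderate levels. Scaled to exon length (RPKM, the mean of the 16 libraries), the lowest was the nephrocystin gene Nphp4 at 1.431 and the highest the dynein-2 light intermediate chain gene Dync2li1 at 24.58, with a median of 6.39. The motor of the outward trains was even among its parts: Kifap3, its adaptor, stood at 13.88 RPKM, Kif3a at 14.82 and Kif3b at 16.83. IFT-B spanned 2.684 (Ift80) to 18.28 (Ift52) with a median of 9.84, and IFT-A 3.2 (Ttc21b) to 16.81 (Ift43) with a median of 6.11. The BBSome was lower, from 1.93 (Bbs9) to 6.728 (Bbs2), with a median of 2.44. Its recruiter, the GTPase gene Arl6, stood above all of its subunits at 16.88. The transition zone spanned 1.743 (Tmem67) to 16.39 (B9d1), and the nephrocystins 1.431 (Nphp4) to 6.567 (Nek8). Dynein-2 spread the widest, its heavy chain gene Dync2h1 lying at 1.531.

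**Figure D1:**
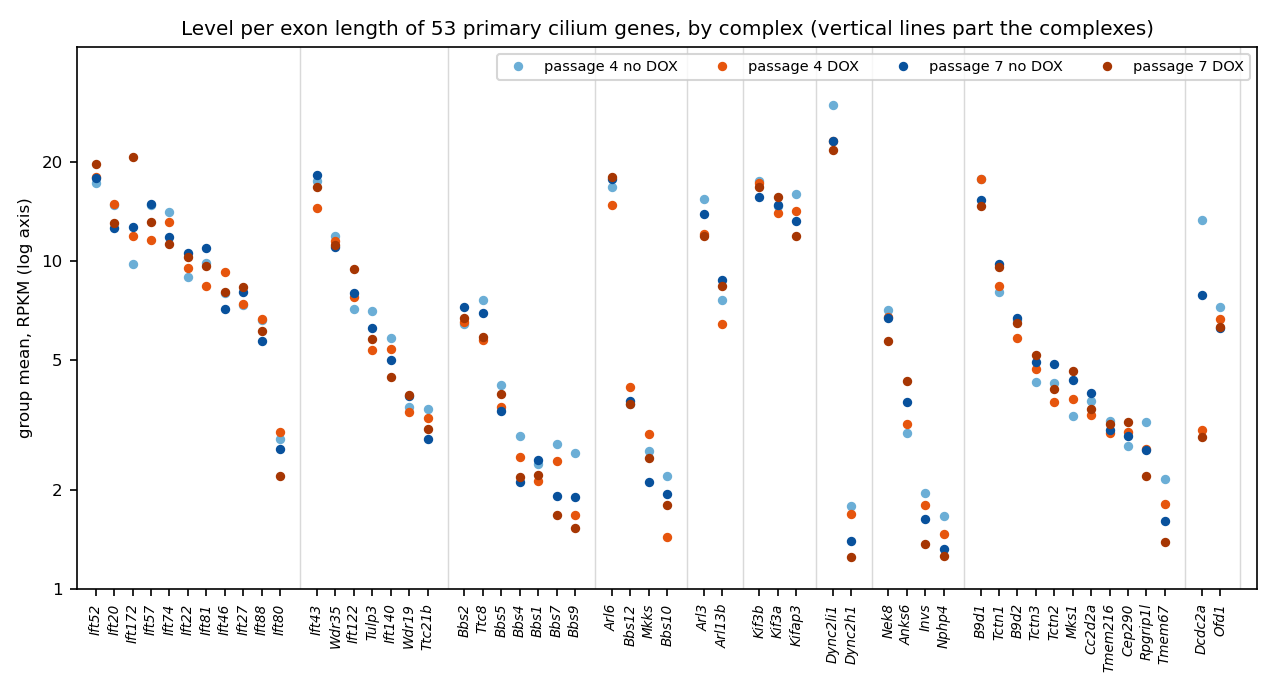
Group means of the 53 genes in RPKM on a log axis, ordered by mean level within each complex, with 1 point per group. Most genes differ far less between the groups than between genes, and Dcdc2a spreads the most, with both groups without DOX above both groups with it.

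With DOX, most of the 53 genes moved little, more fell than rose, and Dcdc2a was the 1 member that changed at least 2-fold. Averaged over the passages, 16 members fell and 4 rose, 37.7% of them, where 32.3% of all tested genes were called (edgeR's quasi-likelihood test, Benjamini-Hochberg adjusted p under 0.05 over all tested genes). Those called lower were 30.2% of the members against 16.6% of all tested genes, and those called higher 7.55% against 15.7%. The median log2 fold change was -0.08 in the members, against -0.003 over all genes, and 39 of 53 members lay within 0.2 of no change. The median absolute log2 fold change was 0.143 in the members and 0.141 over all genes. The median SE was 0.059 against 0.077, so a change of the same size is called more readily in the members. In RNA from whole cultures, fewer ciliated cells and less of an RNA per cell cannot be told apart.

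The members that fell with DOX came from every complex. They were Ift57 and Ift81 of IFT-B, Ift43 and Tulp3 of IFT-A, Kifap3 of kinesin-2, Dync2li1 of dynein-2, Bbs9 and Ttc8 of the BBSome, Bbs10 of its assembly, both ARL genes, Invs, Rpgrip1l, Tmem67, Tctn2 and Dcdc2a. Their averaged log2 fold changes ran from -0.15 (Arl13b) to -0.47 (Bbs9), with Dcdc2a far beyond at -1.78. Those that rose were Ift172 (0.49), Ift46 (0.20), Ift122 (0.18) and Anks6 (0.16). Of the 20, 18 kept their direction in each replicate pair at each passage, and Bbs10 and Dync2li1 did not. The 20 were called on these same libraries, so the agreement is no separate evidence for the calls. Its share among all called genes was not counted. Exons of 12 members overlap another gene on the opposite strand, among them Ift57, Invs and Tmem67 of the 20, and whether the counting used strand was not stated.

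**Figure D2:**
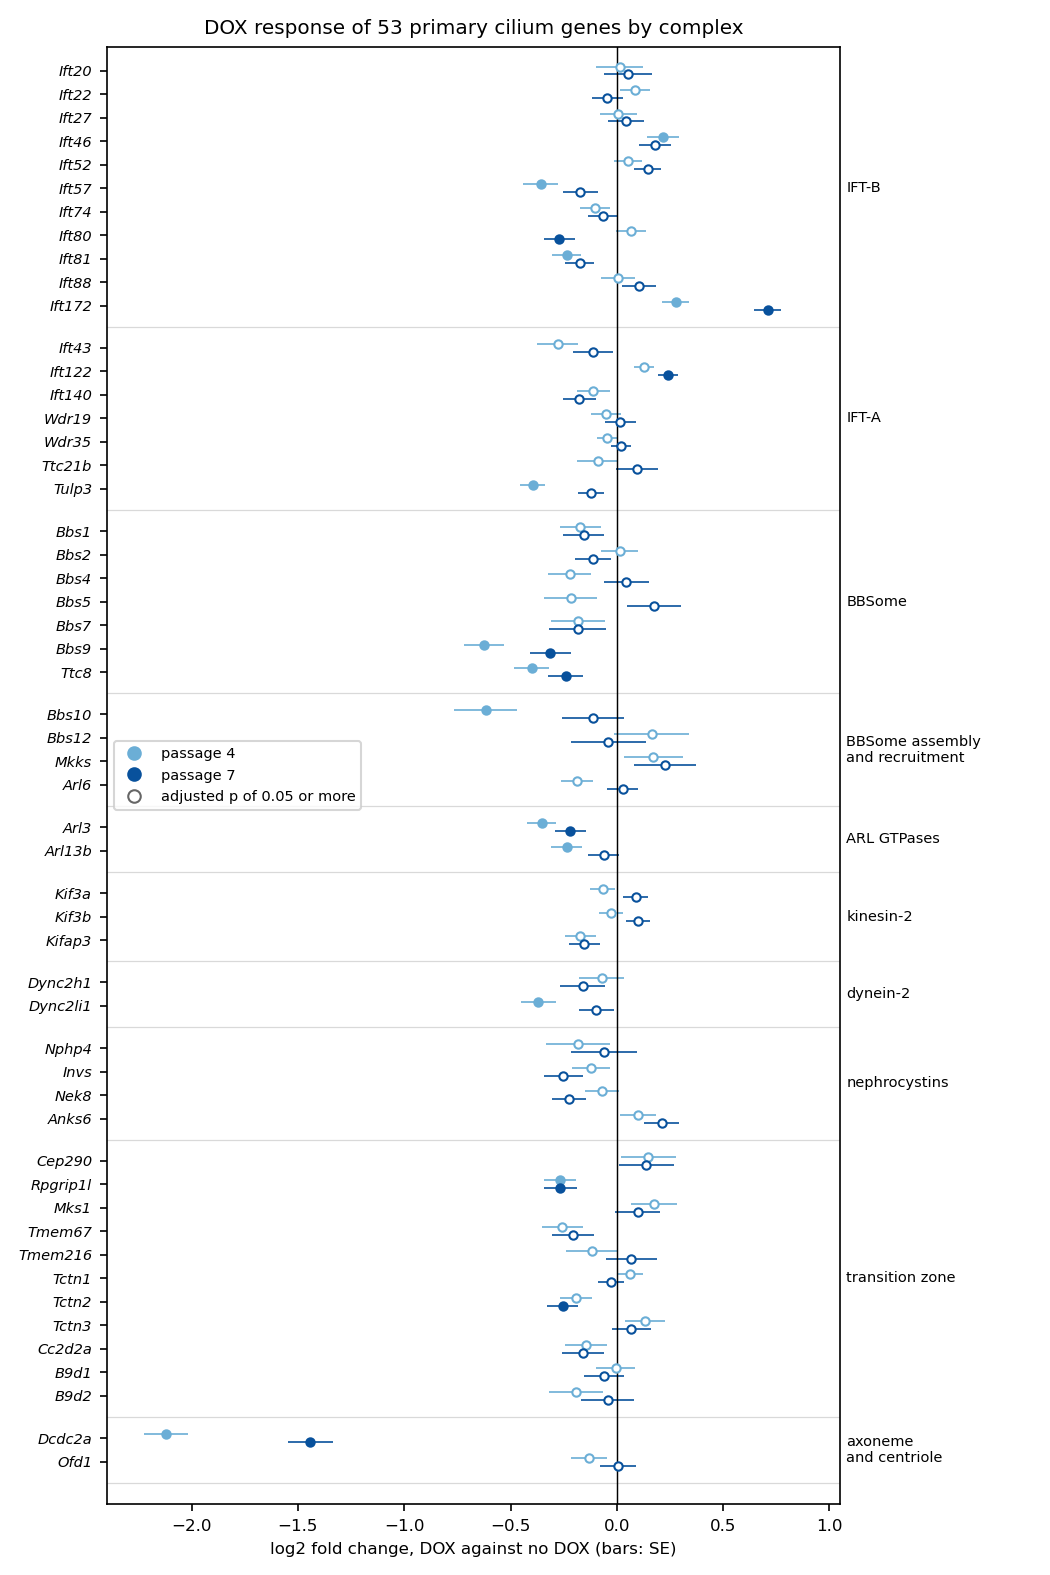
Log2 fold change with DOX of each member at passage 4 (light) and passage 7 (dark), with bars of 1 SE. Filled points passed the adjusted threshold of 0.05. Dcdc2a stands alone at the left (-2.12 and -1.44), Ift172 lies farthest right at passage 7 (0.71), and most other points lie within 0.4 of no change.

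At passage 4, 11 members fell and 2 rose, 24.5% of them, against 17.5% of all tested genes. The 11 were 20.8% of the members, where 9.1% of all genes were called lower, and the 2 were 3.77%, where 8.45% were called higher. In 16 members the range of the libraries with DOX was wholly below that of the others (in 11% of all tested genes), and in 2 members wholly above (10.3%). At passage 7 these were 9 members below (17%, against 12.8% of all tested genes) and 5 above (9.43%, against 12.4%). At passage 7, 7 members fell and 2 rose, 17% against 22.6% of all tested genes, and the 7 were 13.2% where 11.6% of all genes were called lower, and the 2 were 3.77% where 11.1% were called higher. With replicate number as a block, passage 7 had 12 members lower and 4 higher, beside 31.7% of all genes called. The added calls were Ift81, Ift140, Kifap3, Invs and Nek8 on the lower side and Ift46 and Anks6 on the higher. The count of 7 fell to 3 or 4 without replicate 2 (3) or 4 (4) of passage 7 without DOX, or without replicate 1 (4) or 3 (3) of passage 7 with DOX. In the same order, 1535 of 15482, 1494 of 15469, 1624 of 15486 and 1432 of 15452 tested genes were called lower in these fits.

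Bbs9, Ttc8, Arl3, Rpgrip1l and Dcdc2a fell at both passages and Ift172 rose at both. The 5 are 9.43% of the members, where 6.08% of all tested genes were lower at both passages, and Ift172 is 1.89%, where 5.05% were higher at both. They are 45.5% of the members lower at passage 4, against 66.8% over all genes, and 71.4% of those lower at passage 7, against 52.6%. At passage 7, 4 of the 5 calls depended on single libraries, those of Bbs9 and Ttc8 as given further on. Arl3 did not pass there without replicate 2, 3 or 4 of the libraries without DOX or replicate 1, 2 or 3 of those with DOX, nor with only the compared groups in the fit or with every gene tested. Rpgrip1l did not pass at passage 7 without replicate 1 of the libraries without DOX or replicate 3 of those with DOX, nor at passage 4 without replicate 1 or 2 of the libraries without DOX. With replicate number as a block, these 4 passage 7 calls were kept (edgeR adjusted p = 0.02 for Bbs9, 0.022 for Ttc8, 0.014 for Arl3 and 0.004 for Rpgrip1l). No library was left out of that fit. The 2 comparisons share no library. Across the 53 members their log2 fold changes gave a Pearson r of 0.85 (Spearman's rho 0.657), and r was 0.638 without Dcdc2a. Over all tested genes r was 0.697, and these points are genes that share libraries within a passage and not replicates. The sign was the same at both passages in 38 of 53 members (71.7%), as in 72.2% of all tested genes.

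Dcdc2a encodes a doublecortin-domain protein that binds the axoneme's microtubules, and its human counterpart DCDC2 is a nephronophthisis gene. The mouse gene (ENSMUSG00000035910) lies at chr13:25056004-25210706 on the plus strand of GRCm38. At passage 4 it stood at 126, 121.4, 93.28 and 101.4 CPM without DOX and at 23.65, 29.63, 25.7 and 22.2 with DOX. At passage 7 it stood at 64.09, 59.54, 63.75 and 74.43 without DOX and at 23.61, 24.1, 25.58 and 22.98 with DOX. The groups with and without DOX were far apart at both passages, and the 8 libraries with DOX shared 1 narrow range. The level without DOX differed between the passages, with all 4 libraries of passage 7 below all 4 of passage 4. On the log2 scale Dcdc2a fell by 2.12 at passage 4 (SE 0.10, edgeR's quasi-likelihood adjusted p = 3.9e-10) and by 1.44 at passage 7 (SE 0.10, adjusted p = 1.4e-08).

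The fall in Dcdc2a was smaller at passage 7, with a difference in log2 fold change of 0.68 (SE 0.14, edgeR adjusted p = 0.024). The adjusted p of that difference was 0.052 to 0.068 when replicate 1 or 2 of passage 4 without DOX, replicate 1 of passage 4 with DOX, replicate 2 of passage 7 without DOX or replicate 3 of passage 7 with DOX was left out. Between the passages Dcdc2a fell by 0.76 without DOX (SE 0.10, edgeR adjusted p = 2.1e-05), and with DOX the difference was -0.08 (adjusted p = 0.63). The fall between passages was -0.99 in replicates 1 and 2 and -0.49 in replicates 3 and 4, the latter pair having the lower levels at passage 4.

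Ift172, the largest IFT-B subunit, links the trains to their turnaround at the ciliary tip (ENSMUSG00000038564, chr5:31253277-31291116, minus strand). At passage 4 it stood at 63.77, 65.2, 66.78 and 64.16 CPM without DOX and at 75.45, 78.31, 78.65 and 82.6 with it. At passage 7 it stood at 93.14, 87.3, 74.9 and 81.75 without DOX and at 134.2, 150.5, 133.7 and 133.2 with it. The groups with DOX lay wholly above those without at each passage, and passage 7 with DOX lay above all other libraries. Ift172 rose by 0.28 at passage 4 (SE 0.06, edgeR adjusted p = 0.0045) and by 0.71 at passage 7 (SE 0.06, adjusted p = 1.8e-07). The rise was larger at passage 7 by 0.43 (SE 0.09, adjusted p = 0.019, and 0.055 without replicate 1 of passage 4 with DOX). Between the passages Ift172 rose by 0.38 without DOX (adjusted p = 0.00031) and by 0.81 with DOX (adjusted p = 3e-08).

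**Figure D3:**
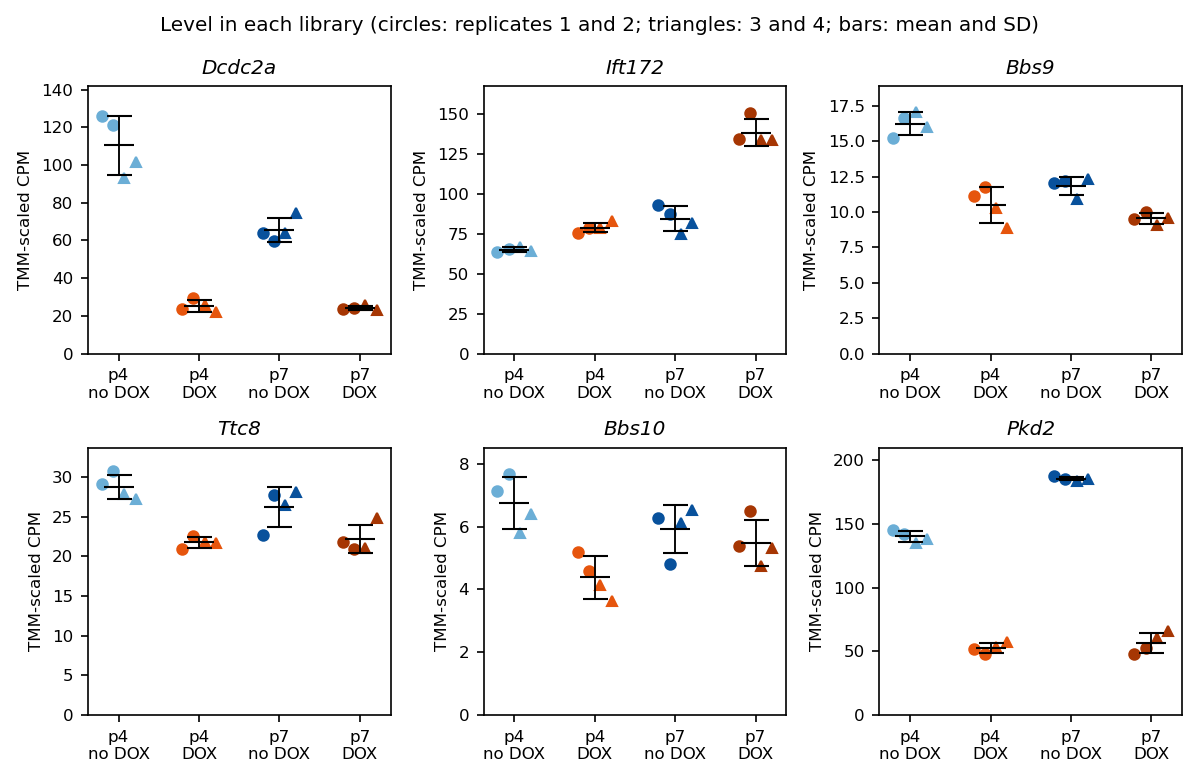
TMM-scaled CPM of 5 members and of Pkd2 in each library, with the mean and SD of each group of 4. Circles are replicates 1 and 2 and triangles replicates 3 and 4. Dcdc2a lies at 22.2 to 29.63 in all libraries with DOX, and Ift172 is highest at passage 7 with DOX.

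Of the other IFT-B genes Ift46 alone rose. The summed level of the 11 IFT-B genes was 449 to 472.6 CPM at passage 7 without DOX and 499.3 to 512.1 with DOX, with no overlap. Without Ift172 the sum was 358.7 to 390.8 without DOX and 348.8 to 378.9 with DOX, and the groups overlapped. Ift46, a core subunit, rose by 0.20 averaged (adjusted p = 0.0065), while Ift81, which binds tubulin with its partner Ift74, fell by 0.20 (adjusted p = 0.0032). Ift57, which joins the trains to kinesin-2, was lower at passage 4 (-0.36, adjusted p = 0.0045) and stood at -0.17 at passage 7 (adjusted p = 0.15). Ift80 was lower at passage 7 (-0.27, edgeR adjusted p = 0.011) and stood at 0.07 at passage 4 (adjusted p = 0.59). The difference between these Ift80 responses was -0.34 (adjusted p = 0.13, and 0.047 with replicate number as a block). Ift27, with 0.03, and Ift22, with 0.02, moved the least of IFT-B.

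In IFT-A, Tulp3, the adaptor that carries membrane receptors into the cilium, changed the most. It fell by 0.40 at passage 4 (SE 0.06, edgeR adjusted p = 0.00011) and stood at -0.12 at passage 7 (adjusted p = 0.17). The difference between these Tulp3 responses was 0.28 (adjusted p = 0.15, and 0.042 with replicate number as a block). Ift43 fell by 0.20 averaged (adjusted p = 0.032, and 0.0068 with replicate number as a block). In the fit with no block, Ift43 did not pass without replicate 2 of either passage 4 group, replicate 3 or 4 of passage 7 without DOX, or replicate 2 or 4 of passage 7 with DOX. Ift122 rose by 0.18 (adjusted p = 0.00029), passing on its own at passage 7 (0.24, adjusted p = 0.00096). Ift140 stood at -0.14 (adjusted p = 0.05, just outside the threshold before rounding, and 0.0073 with the replicate block). Wdr19, Wdr35 and Ttc21b lay within 0.02 of no change averaged over the passages.

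Of the motors, kinesin-2's motor subunit genes Kif3a (0.01) and Kif3b (0.03) did not pass. The adaptor gene Kifap3 fell by 0.16 (edgeR adjusted p = 0.021, and not passing without replicate 3 of passage 7 with DOX). With replicate number as a block the adjusted p of Kifap3 was 0.0012. In dynein-2, Dync2li1 fell by 0.37 at passage 4 (adjusted p = 0.0036) and stood at -0.10 at passage 7 (adjusted p = 0.47). The heavy chain gene Dync2h1 stood at -0.12 averaged (adjusted p = 0.26). Summed over both genes, dynein-2 was at 80.03 to 89.65 CPM at passage 4 without DOX and at 69.32 to 73.82 with it, with no overlap. That sum includes Dync2li1, the gene called, while Dync2h1 alone overlapped at passage 4 (27.1 to 30.48 CPM against 24.41 to 30.24 with DOX). At passage 7 the sums, 62.53 to 69.72 and 57.61 to 64.62, overlapped.

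All 7 BBSome genes had a negative log2 fold change with DOX averaged over the passages, and 2 of them passed the test (28.6%, against 32.3% of all tested genes). At passage 4, 6 of the 7 were negative and at passage 7 5 of the 7, Bbs4 (0.04) and Bbs5 (0.17) being positive there. Their summed level was 125.5 to 131 CPM at passage 4 without DOX and 104.5 to 109.8 with it. At passage 7 it was 108.5 to 118.6 without and 100.1 to 107.9 with it, so that the groups did not overlap at either passage. These sums include Bbs9 and Ttc8, the 2 genes called. At passage 7 the groups lay close (107.9 against 108.5), so the sums there do not show a fall of the other subunits. The largest change was in Bbs9, which encodes a core subunit (chr9:22475715-22888280, plus strand). At passage 4 Bbs9 stood at 15.26, 16.63, 17.11 and 16.02 CPM without DOX and at 11.17, 11.76, 10.31 and 8.847 with it. At passage 7 Bbs9 stood at 12.05, 12.18, 10.92 and 12.34 without and at 9.513, 10.01, 9.11 and 9.586 with it. Every library with DOX was thus below every library without it at the same passage. Bbs9 fell by 0.62 at passage 4 (SE 0.09, edgeR adjusted p = 1e-04) and by 0.31 at passage 7 (SE 0.10, adjusted p = 0.025). At passage 7 the adjusted p rose to between 0.052 and 0.072 without replicate 1, 2 or 4 of the libraries without DOX or without replicate 3 or 4 of those with DOX.

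Ttc8, the BBSome subunit also called BBS8 (chr12:98920574-98983238, plus strand), stood at 29.11, 30.68, 27.83 and 27.19 CPM at passage 4 without DOX and at 20.94, 22.58, 21.75 and 21.64 with it. At passage 7 Ttc8 stood at 22.62, 27.76, 26.49 and 28.09 without DOX and at 21.85, 20.93, 21.09 and 24.82 with it. The groups were separate at passage 4 and overlapped at passage 7, where replicate 1 without DOX was low and replicate 4 with DOX high. Ttc8 fell by 0.40 (SE 0.08, edgeR adjusted p = 0.0017) and by 0.24 (SE 0.08, adjusted p = 0.041). At passage 7 its adjusted p was 0.08 to 0.11 without replicate 2, 3 or 4 of the libraries without DOX or without replicate 1, 2 or 3 of those with DOX. Of the other BBSome genes, Bbs1 stood at -0.16 (adjusted p = 0.074), Bbs7 at -0.18 (adjusted p = 0.14, and 0.034 with replicate number as a block), Bbs4 at -0.09, Bbs2 at -0.05 and Bbs5 at -0.02.

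Bbs10, a chaperonin-like gene needed to assemble the BBSome (chr10:111298679-111301727, plus strand), was one of the weakest signals, with 45 to 104 counts per library. At passage 4 it stood at 7.132, 7.687, 5.793 and 6.408 CPM without DOX and at 5.195, 4.586, 4.126 and 3.619 with it, without overlap. At passage 7 it stood at 6.283, 4.824, 6.102 and 6.52 without DOX and at 5.373, 6.483, 4.742 and 5.333 with it, and the groups overlapped. Bbs10 fell by 0.62 at passage 4 (SE 0.15, edgeR adjusted p = 0.0065) and stood at -0.11 at passage 7 (SE 0.15, adjusted p = 0.65). The difference between the passages did not pass (0.50, SE 0.21, adjusted p = 0.34). The other chaperonin-like genes, Mkks (0.20) and Bbs12 (0.06), and the recruiter Arl6 (-0.08) did not pass.

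Both ARL genes were called lower. Arl3, whose GTPase releases lipid-anchored cargo inside the cilium, fell by 0.35 at passage 4 (SE 0.07, edgeR adjusted p = 0.0014) and by 0.22 at passage 7 (SE 0.07, adjusted p = 0.033). Arl13b, its activator, fell by 0.24 at passage 4 (adjusted p = 0.032) and stood at -0.06 at passage 7 (adjusted p = 0.6). The call of Arl13b was weak in the main fit. With replicate number as a block its edgeR adjusted p was 0.0035 at passage 4 and 0.0049 averaged. Without the block, the passage 4 call was lost without replicate 1 or 2 of the libraries without DOX or replicate 3 or 4 of those with DOX, with only the compared groups in the fit and with every gene tested. Averaged over the passages it was lost in 9 of 16 fits that left out 1 library, those just named besides replicates 1, 2 and 4 of passage 7 without DOX and 3 and 4 of passage 7 with DOX, and with every gene tested. The summed level of the 2 ARL genes did not overlap at either passage. It was 73.71 to 81.11 CPM against 61.55 to 64.67 with DOX at passage 4 and 76.67 to 81.86 against 68.57 to 75.42 at passage 7. At passage 7 each gene alone overlapped, Arl13b at 40.54 to 46.04 CPM without DOX and 39.5 to 46.3 with it. Arl3 stood there at 31.71 to 36.13 without and 27.66 to 33.58 with DOX.

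**Figure D4:**
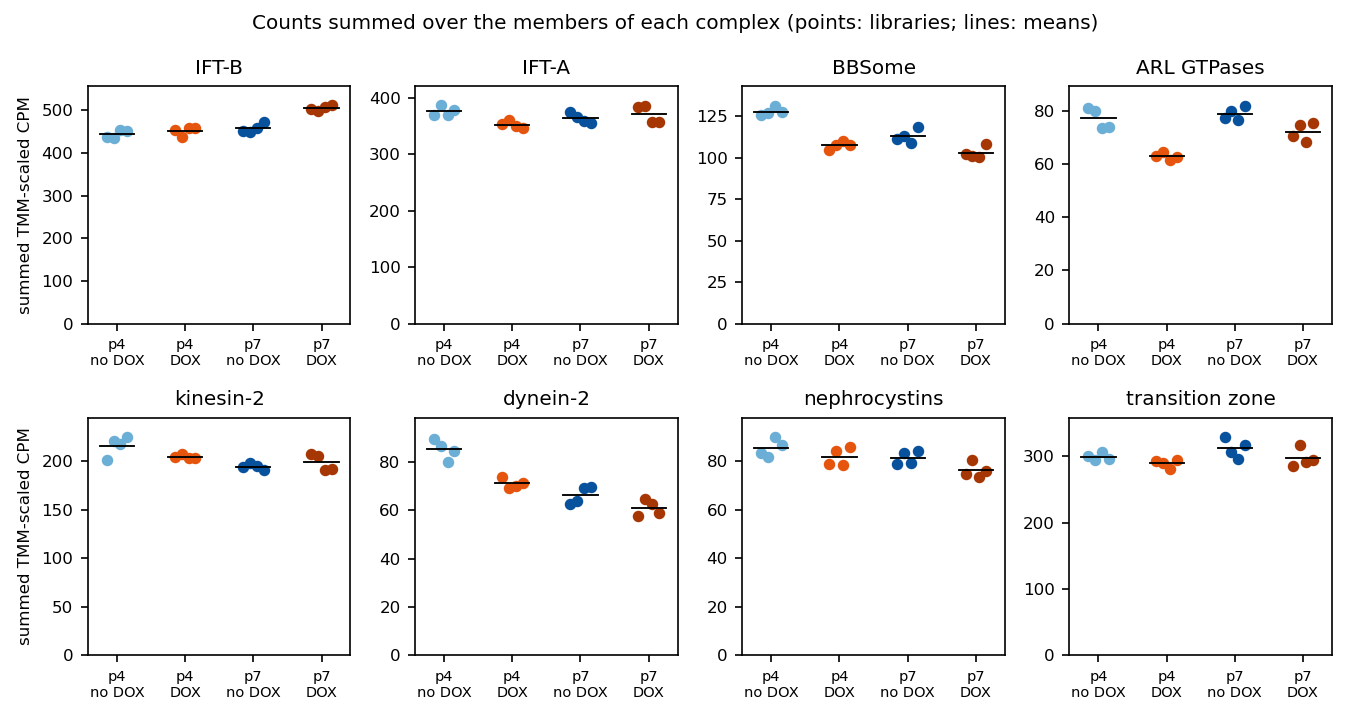
CPM summed over the members of 8 complexes in each library, with a line at each group's mean and every axis starting at 0. The BBSome and the ARL GTPases lie lower with DOX at both passages without overlap, the BBSome sum including its 2 called genes, Bbs9 and Ttc8. At passage 7 each ARL gene alone overlaps. IFT-B lies higher with DOX at passage 7, where the sum without Ift172 overlaps.

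In the transition zone 3 of 11 genes fell and none rose. Rpgrip1l, a scaffold at the base of the gate, moved alike at both passages, falling by 0.27 at passage 4 (SE 0.08, edgeR adjusted p = 0.017) and by 0.27 at passage 7 (SE 0.08, adjusted p = 0.017). Tmem67, which encodes the membrane protein meckelin, fell by 0.23 averaged (adjusted p = 0.014). Tctn2 fell by 0.22 (adjusted p = 0.0028), while its relatives Tctn1 (0.02) and Tctn3 (0.10) did not pass. Cep290 stood at 0.14 (adjusted p = 0.26, and 0.016 with replicate number as a block). Mks1 (0.14), B9d1 (-0.03), B9d2 (-0.12), Cc2d2a (-0.15) and Tmem216 (-0.02) did not pass either.

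Among the nephrocystins, 1 gene was called lower and 1 higher, both near the threshold. Invs, the anchor of the compartment just above the transition zone, fell by 0.19 averaged (edgeR adjusted p = 0.034, and 0.01 with replicate number as a block). It did not pass with every gene tested or in 8 of 16 fits that left out 1 library, which were replicate 1 or 2 of passage 4 without DOX, 1 or 3 of passage 4 with DOX, 1 or 2 of passage 7 without DOX, and 3 or 4 of passage 7 with DOX. Its kinase gene Nek8 stood at -0.15 (adjusted p = 0.057, and 0.014 with replicate number as a block). Anks6, the partner and activator of the kinase, rose by 0.16 with an adjusted p of 0.05, just inside the threshold before rounding, and did not pass in DESeq2 or with every gene tested. It was lost in 12 of 16 fits that left out 1 library, and kept without replicate 3 of passage 4 without DOX, 1 of passage 4 with DOX, 2 of passage 7 without DOX or 3 of passage 7 with DOX. With replicate number as a block the edgeR adjusted p of Anks6 was 0.03. Nphp4 stood at -0.12 (adjusted p = 0.44). The centriole gene Ofd1 stood at -0.06 (adjusted p = 0.46).

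The members with a strict X-box match did not share a direction with DOX. Ift57 fell (averaged -0.26), and Bbs7 (-0.18), Tctn1 (0.02), Tctn3 (0.10) and Mks1 (0.14) did not pass. Of 5 RFX genes tested, Rfx2 rose by 0.40 averaged (SE 0.12, edgeR adjusted p = 0.012) and Rfx1 by 0.22 (SE 0.08, adjusted p = 0.037). Rfx3 (0.12, adjusted p = 0.57), Rfx5 (-0.11, adjusted p = 0.073) and Rfx7 (0.02, adjusted p = 0.84) did not pass averaged, and Rfx5 was lower at passage 7 (-0.25, adjusted p = 0.01).

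Testing whether the DOX response differed between passages called 2 members, Dcdc2a and Ift172, 3.77% of the 53 against 1.19% of all tested genes (0.516% on the positive side). Both differences were positive, a smaller fall and a larger rise at passage 7. With replicate number as a block Tulp3 joined on the positive side and Ift80 was called on the negative side. For the other members no difference passed, which does not show that the responses were alike, since the median SE of this difference was 0.117 over the members.

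Passage itself moved at least as many members as DOX did. Without DOX, 15 members were lower and 7 higher at passage 7 than at passage 4, 41.5% of the 53 against 25.6% of all tested genes. The median absolute log2 difference was 0.202 in the members and 0.178 over all genes. The median SE was 0.084 against 0.109, so a change of the same size is called more readily in the members. Those called lower were 28.3% of the members, where 11.3% of all genes were called lower, and those called higher 13.2%, where 14.3% were. Only 9 were lower without replicate 3 of passage 7 without DOX, where 1562 of 15480 tested genes were. With DOX, 12 were lower (22.6%, against 15.8% of all tested genes) and 8 higher (15.1%, against 18.3%), together 37.7% against 34.1%. Called lower in both comparisons were Ift74, Ift140, Bbs7, Kifap3, Dync2h1, Invs, Rpgrip1l and Tmem67, and called higher in both were Ift172, Ift122, Arl13b, Anks6 and Tctn1. How many of all tested genes were called alike in both was not counted. Without DOX, Arl13b did not pass in DESeq2 or in 11 of 16 fits that left out 1 library (0.20, edgeR adjusted p = 0.047), passing without replicate 1 of passage 4 without DOX, 3 of passage 4 with DOX, 3 of passage 7 without DOX or 2 or 3 of passage 7 with DOX. Of those lower without DOX, Ift140 was lost in 7 of 16 such fits (without replicate 1, 2 or 3 of passage 4 without DOX, 1, 3 or 4 of passage 7 without DOX, or 4 of passage 7 with DOX) and Invs in 5 (without replicate 1 or 2 of passage 4 or 1, 3 or 4 of passage 7, all without DOX). With DOX, Ift74 was lost in 3 (without replicate 1 of passage 4 or 1 or 2 of passage 7, all with DOX) and Tctn1 in 1 (without replicate 2 of passage 7 with DOX). Bbs7 had one of the largest falls, 0.54 without DOX (SE 0.13, edgeR adjusted p = 0.0051) and 0.54 with it (SE 0.13, adjusted p = 0.0037). Dync2h1 fell by 0.36 without DOX (adjusted p = 0.018, and not passing without replicate 3 of passage 7 without DOX) and by 0.44 with it (adjusted p = 0.0032). Bbs9 fell by 0.46 without DOX (SE 0.09, adjusted p = 0.0016), to 10.92 to 12.34 CPM beside 8.847 to 11.76 with DOX at passage 4, and stood at -0.14 with DOX (adjusted p = 0.27). The passage comparisons share their libraries with the DOX comparisons. Of 18 cell cycle genes, 8 were higher and none lower at passage 7 without DOX, and 13 higher and 1 lower with DOX, their summed level being 2240 to 2380 CPM at passage 4 without DOX and 2440 to 2890 at passage 7. Markers of other cell types moved with passage as well. Without DOX, 2 of 3 tested fibroblast markers were higher at passage 7 (Dcn, 2.22, and Col1a1, 1.76) and 1 lower (Acta2, -0.58), the endothelial marker Flt1 was higher (1.18), 2 of 3 leukocyte markers were higher and Ptprc lower (-1.68), and the intercalated cell marker Atp6v0d2 was lower (-1.29). The summed level of the fibroblast markers was 12.1 to 21 CPM at passage 4 without DOX and 11 to 15.7 at passage 7. The part of cell division and of these cell types in the members' change was not tested.

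The 2 replicate pairs differed in the members too. With group held constant, 5 members were higher and 9 lower in replicates 3 and 4 than in 1 and 2, 26.4% of the 53 against 36.9% of all tested genes (17.5% higher and 19.5% lower). Bbs12 (-0.35), Cep290 (-0.32) and Mkks (-0.29) were lowest and Bbs7 (0.27) highest. Of the members called for DOX, Ift46 and Ift57 were among those higher, and Arl13b, Kifap3, Invs and Rpgrip1l among those lower. Each pair of replicates is spread evenly over the 4 groups.

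In all, 18 of the 53 members were called in none of the DOX and passage comparisons, and 11 of them in none with the replicate block either. How many of all tested genes were called in none was not counted, so 18 cannot be read as many or few. The 18 are Ift20, Ift27, Ift52 and Ift88 of IFT-B, Wdr19 and Wdr35 of IFT-A, Bbs1, Bbs2, Bbs5, Bbs12 and Mkks, and Nphp4, Cep290, Tmem216, Tctn3, Cc2d2a, B9d2 and Ofd1. With the block, Ift20, Ift88, Mkks, Nphp4 and Ofd1 were called lower for passage without DOX (adjusted p = 0.016 to 0.048), Wdr19 higher for passage with DOX (adjusted p = 0.029) and Cep290 higher for DOX averaged (adjusted p = 0.016). For counts simulated on the passage 4 comparison, the same test found 70% of genes changed 1.5-fold and 84% of those changed 2-fold. The share found among the members alone was not tested. The median SE of the members at passage 4 was 0.084, against 0.109 over all tested genes.

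Other genes of the cilium, from lists that do not overlap the 53, are given for DOX averaged over the passages, beside the 32.3% of all tested genes called. Of 14 further IFT, BBSome and motor subunits tested, 1 fell, the IFT-B gene Traf3ip1 (-0.17, edgeR adjusted p = 0.05, just inside the threshold before rounding), and none rose. Of 26 further transition zone and nephronophthisis genes 8 fell and 2 rose. Tmem231 (-0.37), Tmem237 (-0.32) and Sdccag8 (-0.28) were lower, and the Joubert syndrome gene Ahi1 was higher (0.58, SE 0.08, adjusted p = 1.5e-05). Of 11 genes of ciliary membrane cargo, 2 fell and 1 rose, among them Rp2, which inactivates Arl3 and fell with it (-0.32, adjusted p = 2e-04). In the initiation of ciliogenesis and its vesicle traffic 5 of 22 fell and 1 rose. There Rab3ip, which encodes the activator of RAB8 also called Rabin8, fell by 0.41 (SE 0.04, adjusted p = 4.1e-07) and Rab11a, which brings it to the centrosome, by 0.33 (SE 0.05, adjusted p = 7.5e-05). Rab23 rose by 0.45 (adjusted p = 0.00018).

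Hedgehog signalling passes through the cilium, and 3 of its 7 tested genes fell and none rose: Gli3 (-0.61, SE 0.09), Gas1 (-1.08, SE 0.32) and Cdon (-0.27, SE 0.07). The pathway's target Gli1 was not tested, its counts being too low. Of 9 genes of cilium disassembly 1 changed, Nedd9, the partner of Aurora A, which rose by 0.42 (SE 0.05, edgeR adjusted p = 4.4e-06). Of 9 tested transcription factors of ciliary genes 3 rose and 2 fell. The largest changes were in Glis3 (-0.89, SE 0.07) and Glis2 (0.77, SE 0.05), zinc finger genes of cystic kidney disease. Of 7 polycystin and fibrocystin genes 4 fell, Pkd2 itself, Bicc1 (-1.12, SE 0.05), Pkhd1 (-0.66, SE 0.09) and Dzip1l (-0.33, SE 0.06).

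Markers of motile cilia were low: 7 of 16 were tested, their summed level was 36.1 to 49.6 CPM over all libraries, and 1 rose (Dnah11, 0.58) and 1 fell (Spag6l, -1.30). Of 18 cell cycle genes 2 rose with DOX, Mcm2 (0.28) and Ccnd1 (0.31), and the list's median was 0.01. Ccnd1 alone stood at 953.8 to 1100 CPM at passage 4 without DOX and at 1164 to 1469 with it. The other 17 summed to 1186 to 1422 without DOX and 1181 to 1399 with it, and at passage 7 to 1458 to 2029 and 1682 to 1838, so that the groups overlapped at both passages. Of the collecting duct and distal epithelium markers 5 fell and 1 rose, and their sum was 6850 to 7120 CPM without DOX and 6090 to 6580 with it at passage 4, and 7510 to 8250 and 6910 to 7620 at passage 7. Leukocyte markers were low and lower with DOX, at 39 to 46.9 CPM without and 20.1 to 35.5 with it at passage 4, and at 67.1 to 75.2 and 36.1 to 43.7 at passage 7. Of these 7 markers 3 were tested and all 3 fell, and Adgre1 and Itgam were at 0. Fibroblast markers, 3 of 8 tested, summed to 11 to 21.6 CPM, and 1 of them rose with DOX (Dcn, 1.34, edgeR adjusted p = 0.00025). The endothelial marker Flt1 rose by 0.38 (adjusted p = 0.013). Of 5 tested principal cell markers 3 fell and 1 rose (median -0.73), but the sum of all 9 did not fall. At passage 4 that sum was 104 to 144 CPM without DOX and 136 to 171 with it. At passage 7 it was 161 to 188 without and 189 to 233 with DOX, higher without overlap. The part of these lists in the members' changes was not tested.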

How the data were processed

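Per the labels' protocols, poly(A) RNA was selected, libraries were made with a directional kit and sequenced with 2 reads of 75 bp per fragment, with alignment to GRCm38.p6 in STAR 2.6.0c. Raw counts per gene were deposited, 9937504 to 17188295 per library, beside a TPM table. The tool, annotation release and strand setting of the counting are not given in the sources used here. No deposited TPM value is used, since over 12205 genes 12 of 16 TPM headings matched a count column of another group (best correlation at least 0.995, next at most 0.9).

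All 55536 identifiers matched GENCODE vM21 (GRCm38), and 25677 genes had no counts. Genes were kept by filterByExpr, scaled by TMM and fitted with edgeR 4.0.16 (robust quasi-likelihood, R 4.3.3) on all 16 libraries, with 1 mean per group, 12 residual degrees of freedom and Benjamini-Hochberg adjustment over 15316 genes. SE is the log2 fold change divided by the root of F. CPM and RPKM were computed from TMM-scaled counts, RPKM with the annotated exon length. Passage differences are passage 7 minus passage 4. Alternatives were DESeq2 1.42.0, other filters and scalings, a replicate block, a term for the replicate pairs and leaving out each library. The steps were tested on simulated counts.

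Libraries of the same replicate number deviated together in all 24 pairings across groups (correlations 0.222 to 0.458). The numbers were therefore taken to pair them, though libraries of the same pair but another number did so equally (0.226 to 0.5). No replicate was a duplicate (chi-square of 1.88 to 19.1 per degree of freedom).

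The members, gene lists and tests were chosen with earlier results of these data known. Values of every library are given for members called for DOX averaged with an absolute log2 fold change of at least 0.4 there or at a passage, called for the difference of responses, or called for passage with at least 0.6. Of each related list up to 4 genes of smallest adjusted p are named; Rfx1, Rfx2, Dzip1l, Gli1 and further RFX genes and markers were named after their values were seen. Some listed genes are not reported here. Promoter windows are RefSeq's (GRCm38.p6).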

Additional observations from a re-analysis of the deposited data

Results flagged for a closer look

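Ift172 at passage 7 with DOX had 1 library apart from the others of its group, replicate 2 at 150.5 CPM, beside 134.2, 133.7 and 133.2. This check was made on 24 groups of 4 libraries, where chance marks about 1 in 20. The rise of Ift172 with DOX was larger at passage 7 than at passage 4, with a difference of 0.43 on the log2 scale (SE 0.09, edgeR adjusted p = 0.019). The fall of Dcdc2a was smaller at passage 7, with a difference of 0.68 (SE 0.14, edgeR adjusted p = 0.024).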

How the results depend on the processing

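The counts of members called, Pkd2 at each passage and the 5 members given in full were recomputed under the alternatives. Of these values, 981 stayed on their side of the threshold or within 1.5 times and 20 called values lost the threshold. A further 35 counts moved further and 2 uncalled values changed sign. Calls lost by other single members are not in these totals, such as Ift46 at passage 4, lost in 13 of 16 fits that left out 1 library. With replicate number as a block, passage 7 had 4 members higher and 12 lower with DOX, and 1 member had a lower response at passage 7 (Ift80); with the replicate pairs as a term these counts were 4, 13 and 1, and passage with DOX had 13 members higher. The block took no call away from any member and changed no count besides these by more than 1.5 times. Over all 15316 tested genes, the block called 2339 higher and 2522 lower at passage 7 with DOX, and 428 with a lower response at passage 7. With the pair term these were 2407, 2622 and 482, and 3643 were higher for passage with DOX. Testing every gene with at least 1 count gave 1 member higher at passage 4, 3 lower at passage 7 and 3 higher for passage without DOX. Of the 29859 genes then tested, 1118 were higher at passage 4, 1442 lower at passage 7 and 1802 higher for passage without DOX. With only the groups of the comparison in the fit, 1 member was higher at passage 4, as were 1157 of 14704 tested genes. DESeq2 dropped Anks6 (DOX averaged), Arl13b (passage without DOX) and Rpgrip1l (replicate pairs) and added Ift43 (passage 4).

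Leaving out each library in turn gave 3 to 4 members higher and 13 to 18 lower for DOX averaged, 1 to 2 and 9 to 12 at passage 4, 2 and 3 to 9 at passage 7, and 0 to 2 and 0 for the difference of responses (0 higher without replicate 1 of passage 4 with DOX). For passage it gave 5 to 7 higher and 9 to 16 lower without DOX, and 6 to 9 and 8 to 12 with DOX. For the replicate pairs it gave 3 to 7 higher (3 without replicate 2 of passage 4 with DOX) and 7 to 9 lower, and for Pkd2 -1.45 to -1.37 at passage 4 and -1.79 to -1.63 at passage 7. Of all tested genes, these fits called 29.1 to 32.3% for DOX averaged, 13.9 to 17.2% at passage 4 and 17.8 to 23.4% at passage 7. They called 0.685 to 1.48% for the difference, 21 to 26.4% for passage without DOX, 28.2 to 33.7% with DOX and 33.3 to 35.2% for the replicate pairs. The second member higher at passage 4, Ift46, was lost without any 1 library except replicate 3 of passage 4 without DOX, replicate 2 of passage 4 with DOX and replicate 1 of passage 7 without DOX. For passage with DOX, the uncalled values of Ttc8 (-0.03 to 0.06, lowest without replicate 4 of passage 7 with DOX) and Dcdc2a (-0.13 to 0.02, highest without replicate 2 of passage 4 with DOX) changed sign. The cause of these changes was not tested. Bbs10 had the fewest counts of the members, 45 to 104 per library.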
